A study of Mus musculus with 2 samples.

Results

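The genes described here are 47 regulators and components of pre-mRNA splicing, out of 55450 annotated genes in the deposited isoform table. They were taken as a list of gene symbols: SR proteins, hnRNP proteins and PTB relatives, factors of the U1 and U2 particles, the CLK kinases, other RNA-binding proteins, DEAD-box helicases and proteins of nuclear speckles. All 47 matched 1 gene identifier each. For each gene the data give its level and the part of that level assigned to transcripts annotated as retained intron or as targets of nonsense-mediated decay.

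The measurements come from total RNA-seq of primary cells labelled neutrophil, from spleen per the label text, in 1 group of 2 libraries. The mice were adult males of the strain B6CASTF1/J, a first-generation cross with C57BL/6 on the maternal and CAST/EiJ on the paternal side, aged 59 days. Each library was started from 300 ng of RNA, carried ERCC spike-in RNA, and was made with a directional kit after depletion of ribosomal RNA. No treatment, mutant allele or second cell type was labelled, so no conditions are compared. The libraries are numbered as biological replicates but carry the same donor label. No label ties them to different animals, and their spread may be technical only.

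Splicing removes introns from a nuclear transcript, and the proteins listed here decide which exon ends are used. SR proteins bind exons and recruit the U1 and U2 particles, many hnRNP proteins act against exon use, and CLK kinases phosphorylate the serine and arginine repeats of SR proteins and move them out of nuclear speckles. Many genes of both families are known to control their own level through splicing: an exon that carries an early stop codon ("poison exon") or an intron left in place sends the RNA to nonsense-mediated decay or holds it in the nucleus. In maturing granulocytes, intron retention is a described feature of gene regulation.

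The cells matched the label by their markers. All 12 neutrophil markers reached 1 TPM (a level per length, scaled to the same total in each library) in both libraries, and they summed to 67732 and 64164 TPM in replicates 1 and 2. Summed B cell markers stood at 31.8 and 18.5 TPM, erythroid markers at 24.4 and 78 TPM, and platelet markers at 14.7 and 14.3 TPM. Of 5 T cell markers and 3 NK cell markers, 0 reached 1 TPM in both libraries. The 5 monocyte and macrophage markers summed to 751 and 719 TPM, a level not near 0, and their part in the values below was not tested. In bulk RNA, fewer cells of a type and less RNA per cell cannot be told apart. The libraries held 18836093 and 18444369 estimated reads in the gene table, of which the 47 splicing factor genes took 272300 and 266640.

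Exon 4 of the CLK kinase genes is shown first because transcript models of all 4 genes either skip it or keep an intron beside it. CLK1, CLK2, CLK3 and CLK4 are sister kinases, and the exon lies before the part that encodes the kinase domain. The letters are C57BL/6 reference sequence on build mm10, read 5′ to 3′ from GENCODE release M21 transcripts that keep the neighbouring introns, and the capitals mark the exon. Positions cover the printed stretch.
Clk1, chr1:58420115-58420231, minus strand: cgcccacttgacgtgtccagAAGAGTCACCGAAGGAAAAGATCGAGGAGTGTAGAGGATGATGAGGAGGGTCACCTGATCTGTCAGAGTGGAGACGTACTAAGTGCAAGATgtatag
Clk2, chr3:89169598-89169708, plus strand: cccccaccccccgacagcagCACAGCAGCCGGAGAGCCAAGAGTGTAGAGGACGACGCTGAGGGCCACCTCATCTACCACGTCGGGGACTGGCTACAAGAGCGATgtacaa
Clk3, chr9:57758621-57758743, minus strand: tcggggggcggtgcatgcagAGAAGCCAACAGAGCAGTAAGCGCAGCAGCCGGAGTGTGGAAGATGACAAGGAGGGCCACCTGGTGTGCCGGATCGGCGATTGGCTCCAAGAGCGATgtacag
Clk4, chr11:51273058-51273174, plus strand: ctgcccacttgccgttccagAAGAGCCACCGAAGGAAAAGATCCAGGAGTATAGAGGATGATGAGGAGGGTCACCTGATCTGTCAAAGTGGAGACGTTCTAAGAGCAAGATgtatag
The exon is 91 bases long in Clk1 and Clk4, 85 in Clk2 and 97 in Clk3. Each length leaves a remainder of 1 base after division by 3, so skipping the exon shifts the reading frame. The Clk1 and Clk4 exons shared 93.4% of aligned bases. The other pairs shared between 63.6% (Clk1 with Clk3) and 66.3% (Clk1 with Clk2).

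Shown next are 5 of the SR protein genes in which the leading annotated decay transcript carries an exon that the reference coding transcript skips and ends its reading frame inside it. Srsf4, Srsf9 and Srsf11 have such a model too and are not printed. The stretch from the start of the exon to the stop codon is shown for each, with the stop codon in capitals, from the same source and build. These exons are 456 bases long in Srsf3, 268 in Srsf6, 460 in Srsf7, 306 in Tra2a and 276 in Tra2b.
Srsf3-201, chr17:29039454-29039487, plus strand: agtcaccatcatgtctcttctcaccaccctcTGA
Srsf6-201, chr2:162932815-162932966, plus strand: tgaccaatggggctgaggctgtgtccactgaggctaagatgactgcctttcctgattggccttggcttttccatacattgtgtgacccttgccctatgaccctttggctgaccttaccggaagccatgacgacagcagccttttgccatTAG
Srsf7-203, chr17:80205054-80205081, minus strand: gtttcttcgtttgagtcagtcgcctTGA
Tra2a-202, chr6:49252965-49253108, minus strand: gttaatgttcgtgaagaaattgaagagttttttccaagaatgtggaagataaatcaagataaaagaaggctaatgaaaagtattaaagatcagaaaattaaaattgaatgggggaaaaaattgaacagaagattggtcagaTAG
Tra2b-206, chr16:22259181-22259261, minus strand: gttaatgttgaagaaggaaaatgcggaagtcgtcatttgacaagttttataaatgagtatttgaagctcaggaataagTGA
The frame runs 34 bases into the exon in Srsf3 and 28 in Srsf7, against 152 in Srsf6, 144 in Tra2a and 81 in Tra2b. Tra2a and Tra2b encode close relatives, and their exons both lie in intron 1 of the reference transcript.

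All 47 splicing factor genes were expressed, with at least 1 TPM in both libraries. Their median levels in the gene table were 109 and 120 TPM in replicates 1 and 2, and 29 of 47 averaged 100 TPM or more. The set took 0.738% and 0.747% of all gene-table TPM. Highest was Ddx5 (chr11:106780355-106789185, minus strand), an RNA helicase of transcription and splicing complexes, at 576.88 and 620.78 TPM. It was followed by Rbm39, a U2AF-related splicing coactivator, at 496.49 and 511.96 TPM, and by the kinase gene Clk1 at 396.75 and 387.49 TPM. Hnrnpk, which binds C-rich RNA, stood at 376.51 and 375.27 TPM, and the SR protein gene Srsf5 at 348.61 and 349.04 TPM. In the gene table these 5 genes keep this order in both libraries, and the values of neighbours do not overlap. In the isoform table Clk1 stood at 371.46 and 350.50 TPM, below Hnrnpk (606.70 and 626.20 TPM) and Srsf5 (443.05 and 470.77 TPM). The place of Clk1 therefore depends on the table.

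The next 5 genes lay between 217 and 284 TPM in every library. Hnrnpa2b1, which encodes an hnRNP A/B family protein, stood at 253.19 and 283.76 TPM, and Hnrnpf, which encodes a G-tract binding protein, at 264.77 and 263.93 TPM. The speckle scaffold gene Srrm2 stood at 270.78 and 253.42 TPM, so the order of these 3 changes with the library and they cannot be ranked beyond their spread. Sf1, the branch point binding protein gene, followed at 222.66 and 234.37 TPM and Hnrnpu, the scaffold attachment factor gene, at 218.85 and 217.06 TPM. Hnrnph1, at 208.65 and 222.58 TPM, overlaps Hnrnpu, so the place of Hnrnpu is not resolved. The lowest genes were Srsf9 (28.7 ± 0.573 TPM), Clk2 (30.4 ± 0.834 TPM), Srsf10 (33.1 ± 2.41 TPM) and Srsf4 (36.5 ± 1.83 TPM, all SD, n = 2).

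**Figure D1:**
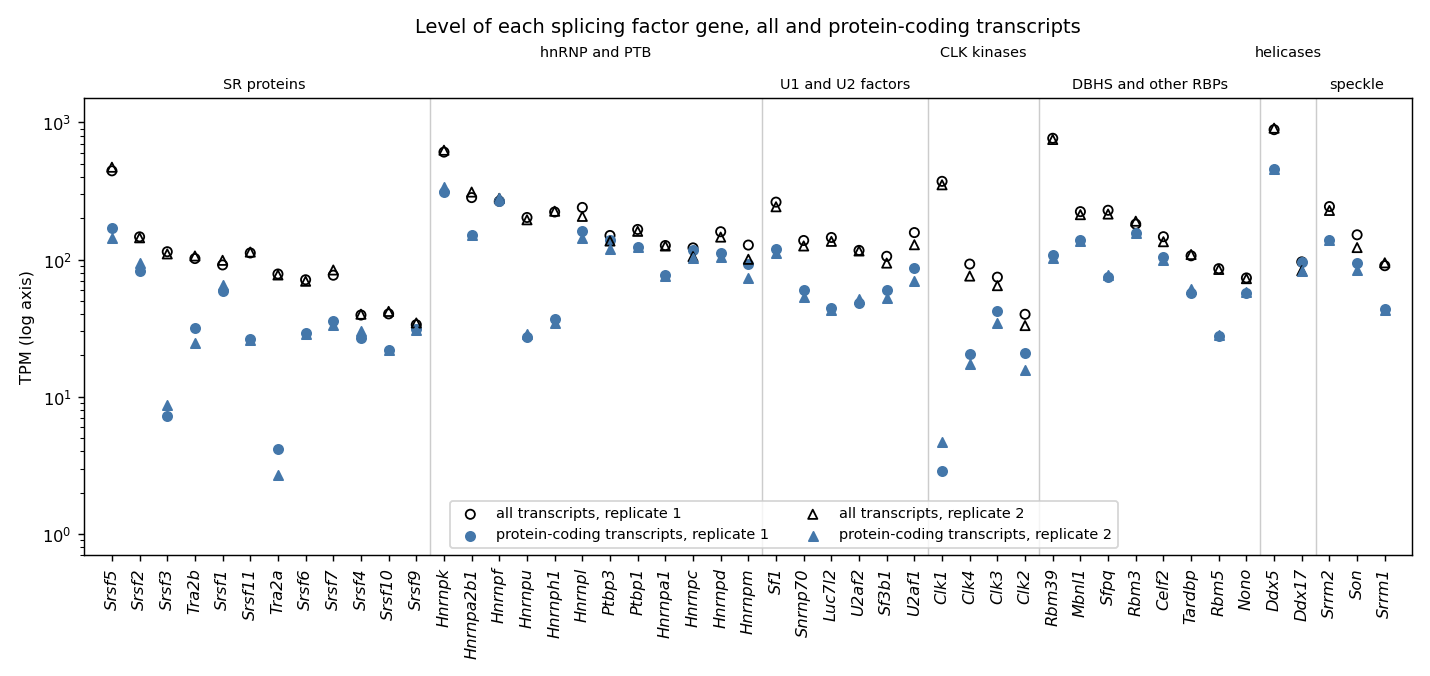
Level of each of the 47 splicing factor genes in the isoform table, in TPM on a log axis, with circles for replicate 1 and triangles for replicate 2. Open symbols are all transcripts of a gene and filled symbols its protein-coding transcripts; the gap is widest for Clk1, Tra2a and Srsf3, whose coding transcripts lie under 10 TPM.

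Much of this RNA was assigned to noncoding transcript models. Summed over the 47 genes, retained intron models held 26.3% of isoform-table TPM in replicate 1 and 26.4% in replicate 2, and decay models held 12.3% in both. Protein-coding models held 47.7% and 47.3%. Over the whole isoform table, retained intron models held 8.27% and 7.72% of TPM and decay models 1.79% and 1.65%, but that total includes noncoding RNA genes. The protein-coding share was under 50% in both libraries for 19 of 47 genes (40.4%), beside 17.2% of the 10596 genes with a coding model and at least 1 TPM. Those 10596 genes include many with no annotated retained intron or decay transcript, so the 2 sets differ in annotation. With 4 to 7 such transcripts the median protein-coding share was 54.9% in splicing factor genes and 55.2% in all genes.

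Of the 47 genes, 42 have an annotated retained intron or decay transcript. Srsf10, Hnrnpf, Hnrnph1, Sfpq and Ddx17 have none, and for these a share of 0 reflects the annotation. The summed share of the 2 classes reached 25% in both libraries for 29 of the 42 (69%), beside 43.1% of the 7284 genes with such a transcript and at least 1 TPM. It reached 50% in both for 15 of 42 (35.7%), beside 14.4% of all genes. Genes with more annotated noncoding models reach these values more often. Among genes with 4 to 7 such models, 68% reached 25% and 23.6% reached 50%, while 15 of the 23 splicing factor genes of that kind (65.2%) reached the first and 7 (30.4%) the second. With a like number of annotated models, the splicing factor count at 25% lay near that of all genes. Genes expressed at or above the level of the lowest splicing factor gene reached 25% in 43.1% and 50% in 12.6% of cases.

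The median summed share of the 42 genes was 41.9% in replicate 1 and 42.8% in replicate 2 (42.9% for the mean of both), with medians of 33.3% and 30.5% for retained intron and 8.0% and 8.6% for decay. Over all 7284 genes the median of the mean summed share was 24.7%. With 4 to 7 annotated noncoding models the medians lay close together, at 38.6% for splicing factor genes and 37.9% for all genes. Retained intron was the larger class in both libraries for 33 of 42 genes (78.6%), beside 73.5% of all genes, and decay for the other 9. Among genes with both kinds of model it was the larger in 29 of 36 splicing factor genes (80.6%), beside 62.3% of all genes. A retained intron share of at least 25% in both libraries was found in 23 of 40 genes with such a model (57.5%), beside 34.7% of all genes, and a decay share of that size in 7 of 38 (18.4%), beside 15.4%. These counts, and those of the larger class, were not matched by number of annotated models. With 4 to 7 noncoding models the median retained intron share was 32.2% in splicing factor genes and 28.5% in all genes. The median decay share was 6.1% and 2.9%. Just inside the 25% limit for the summed share lay Hnrnpd at 29.9% and 27.9%, and just outside lay Srsf4 at 31.6% and 24.8%.

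**Figure D2:**
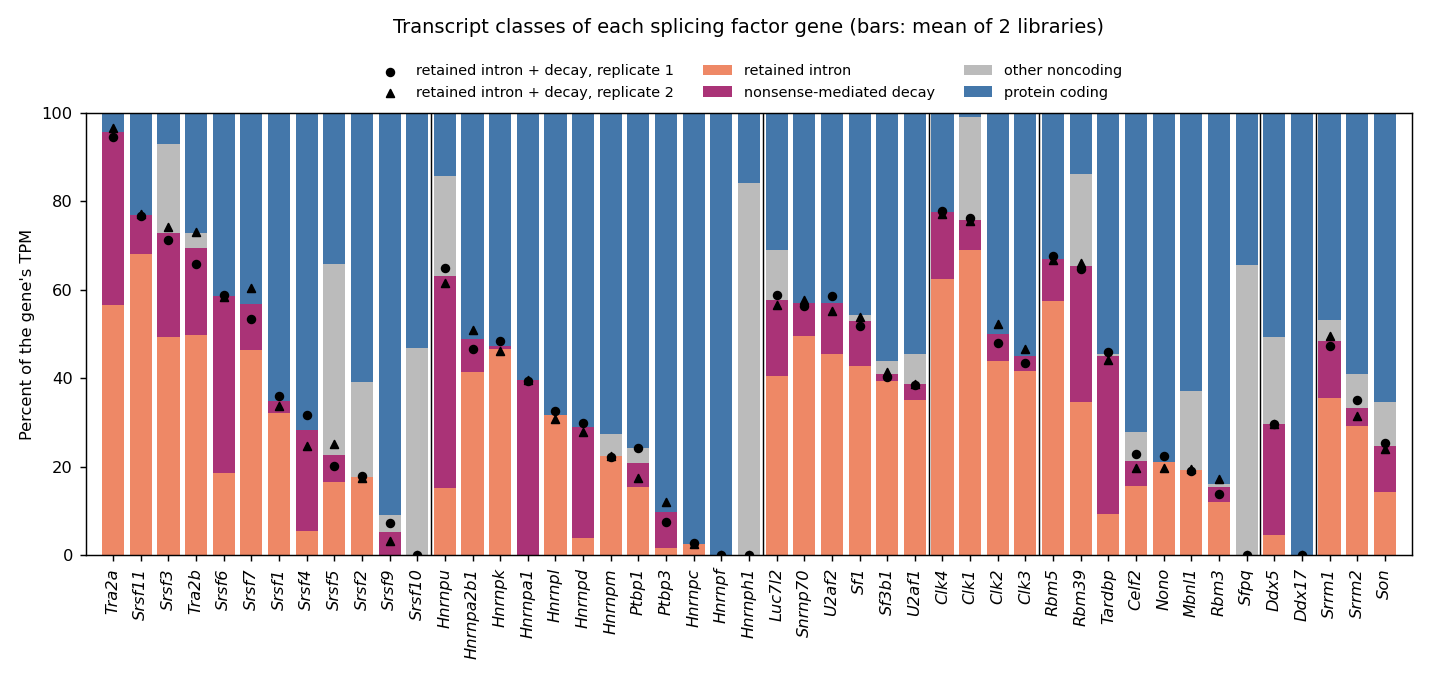
Share of each gene's isoform-table TPM in 4 transcript classes, as stacked bars of the mean of 2 libraries, ordered by group and by the summed share of retained intron and decay models. Circles and triangles give that summed share in replicates 1 and 2, which run from 94.6% and 96.5% in Tra2a to 0% in genes with no such annotated model.

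**Figure D3:**
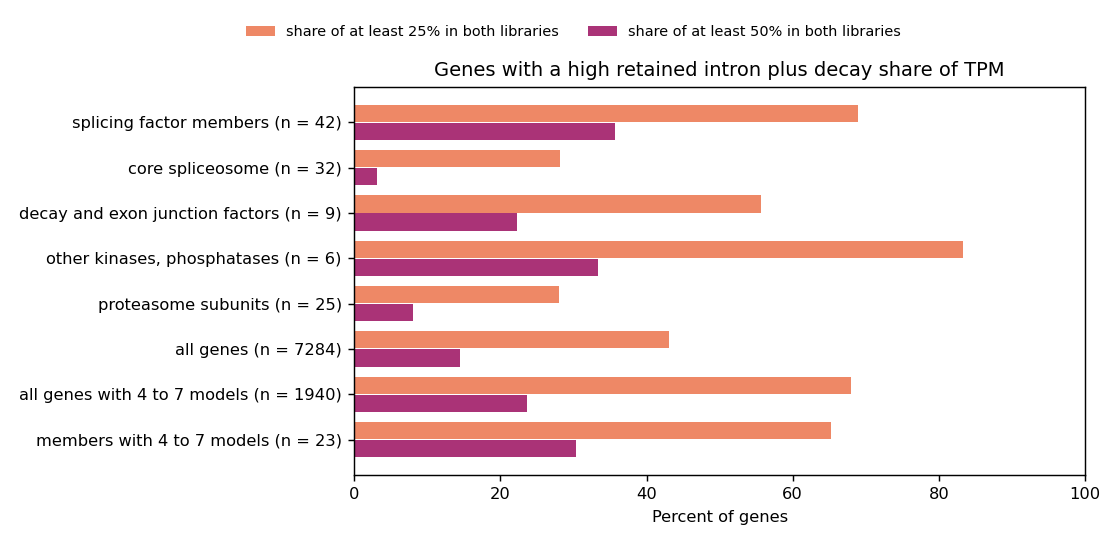
Percent of genes whose retained intron plus decay share reached 25% (upper bar) or 50% (lower bar) in both libraries, for the splicing factor genes and other lists, with the number of genes that have such a transcript and at least 1 TPM. The splicing factor bars (69% and 35.7%) lie above those of all genes (43.1% and 14.4%), and with 4 to 7 noncoding models the upper bars are 65.2% and 68%.

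The SR proteins held the widest range. Of the 11 SR genes with an annotated noncoding model, 7 reached a summed share of 25% and 6 reached 50% in both libraries. Tra2a (chr6:49243924-49264033, minus strand), a relative of the fly sex determination factor transformer 2, had the highest share of all 47 genes. Its retained intron models held 50.5% and 62.4% of TPM and its decay model 44.1% and 34.1%. The decay model Tra2a-202, with the exon printed above, stood at 34.6 and 26.3 TPM, and the retained intron model Tra2a-203 at 26.6 and 30.6 TPM. The coding model Tra2a-204 stood at 4.21 and 2.68 TPM, below both in each library. In the alignment-based transcript table Tra2a-204 stood at 8.05 and 5.90 TPM, still the lowest of the 3.

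Srsf3, which encodes the smallest SR protein, also had a coding model below its leading noncoding models. Its decay model Srsf3-201 stood at 25.7 and 26.7 TPM, and the retained intron model Srsf3-204, which keeps introns 3 and 4, at 31.6 and 31.9 TPM. The single coding model Srsf3-202 stood at 7.25 and 8.65 TPM. The poison exon of Srsf3 lies inside intron 3, so reads from inside it can come from either noncoding model, and the split between them rests on the estimation. Retained intron models held 48.8% and 49.8% of Srsf3 TPM and decay models 22.5% and 24.3%.

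In the isoform table's TPM, Srsf6 divided almost evenly between its coding and decay models. The coding model Srsf6-203 stood at 27.6 and 28.2 TPM and the decay model Srsf6-201 at 28.3 and 27.9 TPM, so the libraries disagree on which is higher. In the alignment-based table the coding model was higher in both libraries, at 30.2 and 31.9 TPM against 23.1 and 25.1 TPM. The retained intron model Srsf6-204, which keeps the intron around the poison exon, stood at 13.7 and 12.7 TPM. By estimated reads the decay share of Srsf6 was lower, 23.9% and 23.7% against 39.7% and 40.1% of TPM. Of the TPM in models that cover this exon, 40.7% and 40.6% spliced it in, 39.7% and 41.0% skipped it, and 19.6% and 18.4% kept the intron.

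In Srsf7 the poison exon was spliced in by 9.0% and 11.8% of TPM and skipped by 46.6% and 39.7%, and 44.5% and 48.4% lay in models with unspliced intron 3 sequence. The retained intron models Srsf7-204, Srsf7-206 and Srsf7-207 overlap there, and Srsf7-207 was listed at 7.70 and 11.03 TPM in the isoform table but at 0 in the alignment-based table. Tra2b, the second transformer 2 relative, had retained intron shares of 46.8% and 52.7% and decay shares of 18.9% and 20.3%. The leading models of these classes were Tra2b-203, a retained intron model at 30.4 and 35.8 TPM, and Tra2b-206, the decay model at 16.1 and 19.0 TPM. In the alignment-based table Tra2b-206 stood lower, at 9.41 and 7.34 TPM. Its poison exon was in 46.3% and 47.4% of TPM of the models that cover it, or 33.7% and 25.2% in the alignment-based table. In Tra2a the isoform-table value was 66.8% and 56.5%. Of the 5 exons this was the highest in both libraries, but models that keep the intron count in the denominator. Tra2a and Tra2b have no such model, while in Srsf3 such models held 43.2% and 50.5%, so the ranking depends on the annotation.

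Srsf11, an SR-related protein gene with 11 retained intron models, had 67.5% and 68.5% of its TPM in them and 9.1% and 8.5% in decay models. The leading retained intron model Srsf11-208 stood at 15.2 and 15.4 TPM, beside 13.6 and 14.5 TPM for the coding model Srsf11-202. Srsf4 had a larger decay share (26.5% and 19.0%, or 10.6% and 7.2% by estimated reads) than retained intron share (5.0% and 5.8%). Srsf1, the first SR protein described, had a retained intron share of 34.0% and 30.3%, but of 6.9% and 6.0% by estimated reads. Its leading retained intron model is 645 bases long, and TPM counts reads per length. Srsf5 had 20.2% and 25.1% in the 2 classes and 43.2% on average in other noncoding models. By estimated reads the 2 classes held 43.0% and 50.4% of Srsf5. Srsf2 (17.9% and 17.5%) and Srsf9 (7.2% and 3.2%) had low summed shares.

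Srsf9 was largely protein coding, at 92.8% and 89.0% of TPM. The leading decay model carried its stop in an exon skipped by the reference in 8 of 10 SR genes that have a decay model of at least 1 TPM. Among hnRNP and PTB genes this held for 0 of 7. For the splicing factor genes of all groups together, the SR genes included, it held for 14 of 36. The share among all other genes was not counted, so the difference between the groups has no wider baseline and was not tested.

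All 4 CLK kinase genes had a summed share of at least 25% in both libraries, and Clk1 and Clk4 had at least 50%. In the alignment-based table Clk2 (65.2% and 65.2%) and Clk3 (57.3% and 55.3%) reached 50% too. Counted in estimated reads they also did, at 57.5% and 57.6% in Clk2 and 61.0% and 63.4% in Clk3. Clk1 had the highest retained intron share of the 47 genes, 68.0% and 70.0%, with 8.3% and 5.4% in decay models. Its only coding model, Clk1-201, stood at 2.86 and 4.68 TPM in a gene of 371.46 and 350.50 TPM in the isoform table. Higher than the coding model in both libraries were the retained intron models Clk1-209 (78.5 and 84.6 TPM), Clk1-204 (73.4 and 70.5 TPM) and Clk1-202 (76.1 and 63.4 TPM). Clk1-204 and Clk1-212 keep introns 3 and 4 on both sides of exon 4, while Clk1-209 ends inside intron 2 and spans no whole intron.

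**Figure D4:**
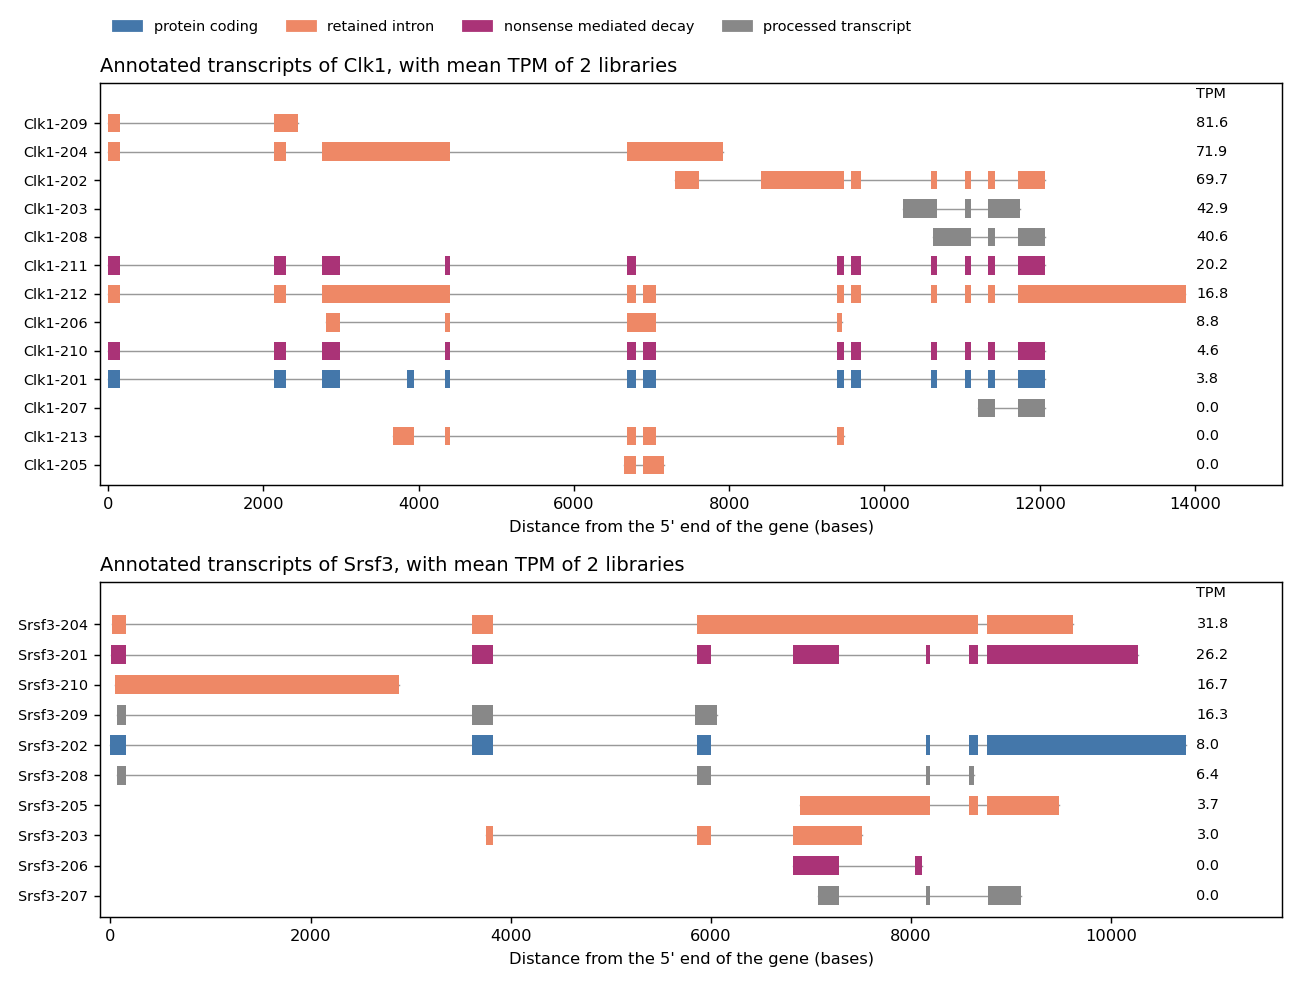
Exons (boxes) and introns (lines) of the annotated transcripts of Clk1 and Srsf3, drawn to scale by distance in bases from the 5′ end of the gene and coloured by transcript class, with the mean TPM of 2 libraries at the right. The retained intron models Clk1-204 (71.9 TPM) and Srsf3-204 (31.8 TPM) are longer unspliced blocks over exons of the coding models Clk1-201 (3.8 TPM) and Srsf3-202 (8.0 TPM).

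Models around exon 4 were divided into those with the exon spliced in, those that skip it and those that keep intron 3 or intron 4. The percentages are of the TPM of models that cover the exon, which was 35.4% and 34.5% of all TPM of Clk1 and 39.2% and 36.4% of that of Clk4. In Clk1 the exon was spliced in by 2.2% and 3.9% of TPM, skipped by 29.7% and 23.4%, and an intron was kept by 68.2% and 72.8%. Clk2 had 35.3% and 31.7% spliced in, 12.3% and 10.4% skipped, and 52.4% and 58.0% with an intron kept. In both genes the kept introns were the largest of the 3 classes in each library.

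Clk3 differed in order in TPM, with 55.1% and 54.1% spliced in, 38.9% and 41.5% with an intron kept, and 6.0% and 4.4% skipped. Clk4 had 38.3% and 52.6% spliced in, 31.7% and 18.5% skipped, and 30.0% and 28.9% with an intron kept. Counted in estimated reads, kept introns were the largest class in both genes in each library. In Clk3 they held 1510 and 1463 reads, against 1205 and 1081 spliced in. In Clk4 they held 749 and 555 reads, against 492 and 517 spliced in. The Clk4 coding model Clk4-201 stood at 13.9 and 14.5 TPM in the isoform table but at 1.73 and 3.51 TPM in the alignment-based table, and the spliced-in share there was 17.8% and 39.2%. The 6 decay models of at least 1 TPM in the kinase genes all leave out a reference exon. In 5 of them that is exon 4, and in Clk4-214 it is exon 1. Clk4-214 is the leading decay model of Clk4, at 9.45 and 8.96 TPM. Its annotated stop lies in its last exon, with 0 splice junctions after it. The leading retained intron model of Clk4, Clk4-209, stood at 14.9 and 11.4 TPM.

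**Figure D5:**
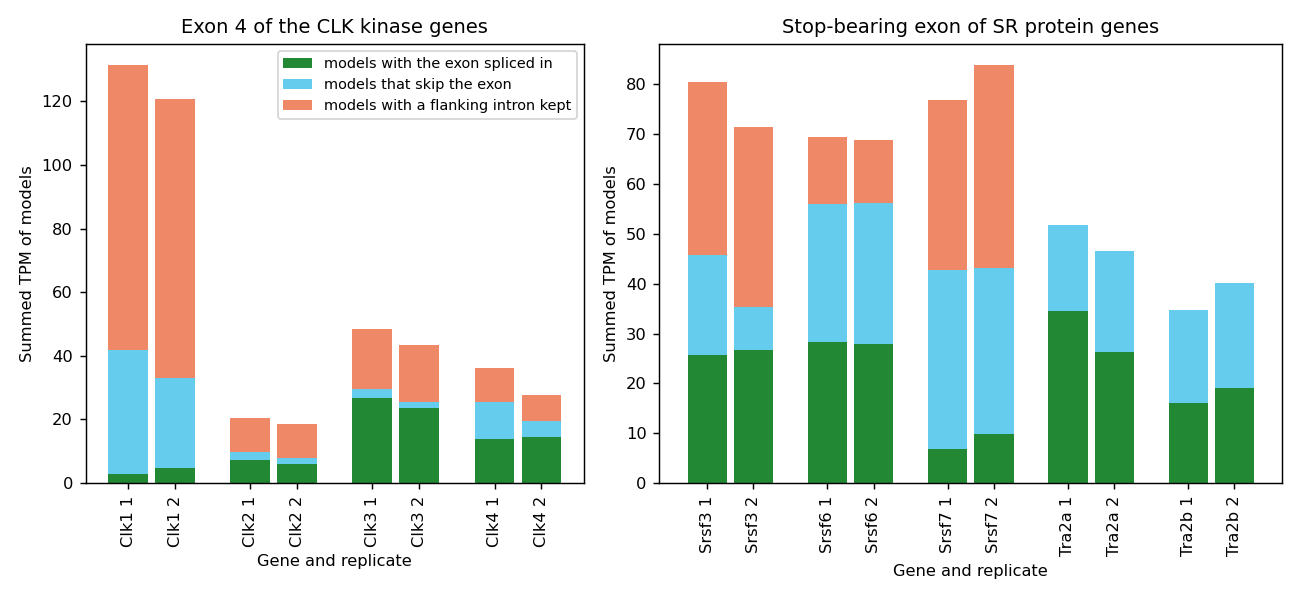
Summed TPM of the models that splice in, skip, or keep an intron beside exon 4 of the CLK genes (left) and the stop-bearing exon of SR protein genes (right), per gene and replicate. In Clk1 kept introns take most of the bar (89.6 and 87.9 TPM) and the spliced-in models 2.9 and 4.7 TPM. In Clk3 the spliced-in models are the largest class in TPM, but not in estimated reads.

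In the hnRNP and PTB group, 6 of 10 genes with a noncoding model reached 25% in both libraries and 1, Hnrnpu, reached 50%. Hnrnpu (chr1:178321108-178337797, minus strand) had the highest decay share of the 47 genes, 49.3% and 46.8%, nearly all in the model Hnrnpu-206 at 96.3 and 90.3 TPM. Its only coding model, Hnrnpu-201, stood at 27.5 and 28.9 TPM. That coding model is 7640 bases long and the decay model 2844 bases, and by estimated reads the decay share was 48.8% and 46.1%.

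Hnrnpa1, the best known antagonist of SR proteins, had 39.3% and 39.6% of its TPM in 2 decay models, led by Hnrnpa1-203 at 34.8 and 34.2 TPM. Both use the reference stop codon and are classed by a splice junction after it. Hnrnpa1 has many processed copies in the genome, and its values are uncertain because reads may be shared with them. Hnrnpd, a regulator of AU-rich RNA, had 25.2% and 25.1% in decay models, also led by a model with the reference stop and a later junction, Hnrnpd-208 at 27.04 and 26.86 TPM. These junctions lie after the reference stop codon, whereas the poison exons of the SR genes end the frame earlier.

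Hnrnpk (48.0% and 45.2%) and Hnrnpa2b1 (38.3% and 44.3%) had the largest retained intron shares of the group. The leading Hnrnpk model of that class, Hnrnpk-215, stood at 110.07 and 113.50 TPM but is 522 bases long, and by estimated reads the Hnrnpk share fell to 25.9% and 26.3%. Hnrnpc (2.7% and 2.5%) and Ptbp3 (mean 9.76%), a relative of the splicing repressor Ptbp1, had the lowest summed shares of the group among genes with such a model. Hnrnpc was 97.3% and 97.5% protein coding. Ptbp1 itself had 24.3% and 17.4%. Hnrnph1 has no model of either class, yet 84.0% of its TPM on average lay in other noncoding models.

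All 6 genes of the U1 and U2 group reached 25% in both libraries, and 4 of them reached 50%. Counted in estimated reads, only Snrnp70 stayed at 50% in both libraries, at 70.2% and 67.8%. Luc7l2 then had 52.6% and 49.5%, U2af2 41.6% and 35.9%, and Sf1 31.8% and 32.3%. Sf1 also lay below 50% in the alignment-based table, at 47.4% and 49.3%. Retained intron shares of TPM in the 6 genes had means from 35.0% in U2af1 to 49.5% in Snrnp70. By estimated reads the range was wider, from 13.7% and 13.3% in Sf1 to 68.2% and 65.0% in Snrnp70. Snrnp70 encodes the largest protein specific to the U1 particle, and its leading retained intron model Snrnp70-216 stood at 19.8 and 18.9 TPM. U2af2, the large subunit of the factor that binds the polypyrimidine tract, had 46.0% and 44.7%, and Sf1 had 42.5% and 43.1%. Luc7l2, a U1-associated factor, had 41.3% and 39.7%. Sf3b1, a U2 protein that holds the branch point, had 40.3% and 38.5%, and its values overlap those of Luc7l2. By estimated reads Sf3b1 had 25.5% in replicate 1, the lowest after Sf1. Decay shares were lower, from a mean of 1.5% in Sf3b1 to 17.1% in Luc7l2. The Luc7l2 decay share was 9.5% and 10.6% in the alignment-based table.

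Among the other RNA-binding proteins, 3 of 7 genes reached 25%. Rbm5, a regulator of apoptosis gene splicing, had 59.8% and 55.2% in retained intron models and 7.7% and 11.4% in decay models. Its leading models of these classes, Rbm5-224 (13.0 and 10.2 TPM) and Rbm5-210 (6.59 and 9.66 TPM), were low, and the retained intron TPM is spread over 13 models. Rbm39 had 33.9% and 35.3% in retained intron models and 30.9% and 30.7% in decay models. In the alignment-based table its decay share was 15.8% and 16.6%. Its leading decay models Rbm39-224 (81.0 and 79.6 TPM) and Rbm39-222 (78.8 and 78.9 TPM) hold different stop-bearing exons in the same intron 2. In the alignment-based table Rbm39-222 stood at 8.83 and 10.8 TPM, so the level of that model depends on the table.

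Tardbp, which encodes TDP-43, a protein that controls its own RNA, had 37.4% and 33.8% in decay models, led by Tardbp-228 at 21.8 and 20.4 TPM. Rbm3, a cold-induced protein gene on the X chromosome, had a low summed share of 13.8% and 17.3%, and 90.2% and 87.5% of TPM at its stop-bearing exon skipped that exon. Nono (22.4% and 19.8%), Mbnl1 (19.1% and 19.6%) and Celf2 (22.9% and 19.8%) stayed below the limit. By estimated reads Celf2 lay above it, at 29.6% and 27.8%, and Nono was at 7.4% and 6.4%. Sfpq, the paraspeckle partner of Nono, has only 1 coding model, and 65.6% of its TPM on average lay in other noncoding models.

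Of the helicases, Ddx5 had 25.8% and 24.3% of TPM in decay models and 3.9% and 5.4% in a retained intron model. Its leading decay model Ddx5-208 stood at 176.05 and 190.47 TPM and keeps a reference intron in the exon that holds the stop. By estimated reads the Ddx5 decay share was 47.4% and 48.5%. The paralog Ddx17 has 4 models, all coding. Of the speckle proteins, Srrm1 (47.3% and 49.6%) and Srrm2 (35.0% and 31.5%) reached 25% in both libraries, and Son (25.4% and 23.9%) did so in replicate 1. By estimated reads the summed share was 23.5% and 21.2% in Srrm1 and 6.6% and 7.2% in Srrm2, both below the limit.

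The class name retained intron does not mean that a whole intron of the coding transcript was measured. Of the 152 retained intron models with at least 1 TPM in these genes, 45 span a whole intron of the reference coding transcript and 107 do not. The 45 held 23.7% and 25.3% of the TPM of all 152. The models were short, with a median length of 865 bases against 1901 for coding models, and models under 1000 bases held 55.5% and 55.1% of retained intron TPM. Total RNA also holds unspliced precursor, which reads alone do not separate from a stably kept intron, and its part was not tested.

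Introns spanned by these models were shorter by median than the others. An intron counted as spanned only when it lay whole inside a single exon of a retained intron model. These models had a median length of 865 bases in the 47 genes, and an intron longer than a model cannot be spanned by it. The definition therefore favours short introns, and the length difference is not read as a result. In the 47 genes 49 of 481 reference introns (10.2%) were spanned, with a median length of 401 bases against 823 for the others. Over all 7151 genes examined the same way, 3652 of 87937 introns (4.15%) were spanned, with medians of 258 and 1287 bases. Examples are intron 6 of Clk1 with 87 bases, intron 13 of Hnrnpk with 78 bases and intron 10 of Ddx5 with 82 bases. Intron 3 of Srsf3 (2150 bases) and intron 3 of Clk3 (2100 bases) are longer examples. Only models with a mean of at least 1 TPM were counted, and the sets were not matched by level or number of models. The splicing factor genes have a median of 5.5 annotated noncoding models, against 2 over all genes with such a model and at least 1 TPM. The part of this in the 10.2% and 4.15% was not tested.

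A separate list of core spliceosome proteins had lower values than the 47 genes, a difference given without a test. The 47 genes also hold components of the U1 and U2 particles, such as Snrnp70 and Sf3b1, which the core list leaves out. Of 32 core proteins with a noncoding model, 9 (28.1%) reached 25% in both libraries, and the median summed share was 17.7% and 18.2%. Their levels were lower too, with medians of 23.2 and 23.8 TPM over 40 genes. Of 9 decay and exon junction factors 5 reached 25%, among them Rbm8a, the junction protein Y14, at a retained intron share of 81.8% in both libraries. Of 6 other splicing kinases and phosphatases 5 did, with Prpf4b at 46.9% and 50.9% in decay models and the SR protein kinase Srpk1 at 26.6% and 34.0% in retained intron models. Of 25 proteasome subunits, a set of other housekeeping genes, 7 (28%) reached 25%. These lists have fewer annotated noncoding models per gene, with medians of 2 for the core and 3 for the proteasome against 5.5 for the splicing factor genes, and the part of that difference was not tested.

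Levels differed little between the libraries. Of the 47 genes 0 reached a 1.5-fold ratio, beside 7.02% of the 12432 genes whose counts over both libraries reach 50. Among 2067 genes with a noncoding model and a level at or above the lowest splicing factor gene, 0.677% reached it, so the 0 is near the share of other genes at this level. The log2 ratio of scaled counts, replicate 2 over replicate 1, ran from -0.23 in Clk4 to 0.21 in Srsf7, and 25 of 47 ratios (53.2%) were above 1, beside 48.5% of all genes and 35.8% of the 2067 genes at this level. Clk4 stood at 74.47 and 72.33 TPM, with a ratio of 0.85 (95% counting interval 0.791 to 0.913). Srsf7 stood at 63.26 and 73.56 TPM, with a ratio of 1.16 (1.08 to 1.24). The next largest were Tra2b (1.14), U2af1 (0.875) and Srsf4 (1.13). The intervals cover counting error only, and with 2 libraries of 1 group no test was made.

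By group, all 12 SR protein genes had ratios above 1, with log2 values from 0.01 to 0.21 and a median of 0.14, and all 4 CLK kinase genes had ratios below 1, from -0.23 to -0.05. The hnRNP and PTB genes divided evenly, with 6 of 12 above 1. Over all genes 48.5% of ratios were above 1, and over the 2067 genes at this level 35.8%. The counting intervals include 1 in Srsf6, Srsf9, Srsf10, Srsf11, Clk2 and Clk3. The SR and CLK counts were 12 of 12 and 0 of 4 under all 6 other scalings and tables tried, while the hnRNP and PTB count ranged from 4 to 7. These alternatives use the same libraries and are not further evidence. Erythroid markers were higher and B cell markers lower in replicate 2, as given above, and their part in these small differences was not tested.

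The retained intron share differed by at least 10 percentage points in 1 of 42 genes, beside 16.9% of 7032 genes, and the decay share in 1 of 42, beside 8.13%. Both were Tra2a, with 50.5% and 62.4% in retained intron and 44.1% and 34.1% in decay models, while the sum was 94.6% and 96.5%. By estimated reads the retained intron shares of Tra2a were 65.1% and 75.1%, a difference just under the limit, and its decay shares 31.7% and 23.0%, so 0 genes passed in either class. The median absolute difference was 1.7 points for retained intron and 1.4 points for decay shares, beside 3.1 and 0.0 points over all 7032 genes. A decay model is annotated in 38 of the 42 genes, but in only 3283 of the 7284 genes with a noncoding model, so the 0.0 reflects the annotation. The 7032 genes were not matched to the 42 by level or by number of models.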

How the data were processed

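Total RNA-seq of spleen neutrophils was analysed in 2 libraries of 1 group. The deposited gene table gives expected counts and TPM per gene, estimated by the authors from alignments to the transcriptome of mm10 and annotation M21, per the lists of files deposited beside the tables. A transcript table from the same alignments (the alignment-based table) holds the same units. A second deposited transcript table (the isoform table) gives estimated counts and TPM for 141767 annotated transcripts with their class, estimated from the reads. For aligner and estimators, name and version were not given in the sources used here. Both parental genomes were measured against the C57BL/6 reference, and whether counting used strand is not given in the labels. The gene table has 26345 controls or features without a gene name, with 0.261% and 0.274% of reads, left out of all sums.

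The 47 genes and all lists were chosen with earlier results of these data known. Shares are the TPM of retained_intron and nonsense_mediated_decay models as percent of a gene's isoform-table TPM. A transcript classed protein_coding can be a fragment without a full coding region. Ratios between the libraries used gene-table counts scaled by their sum, with 0.5 added and exact Clopper-Pearson intervals at 95%, for genes whose counts over both libraries reach 50. Share differences used genes with at least 100 estimated reads. Named genes are the 10 with the highest TPM, the 10 with the highest share of each class, the 5 with the lowest summed share and the 5 with the largest ratio; the rest are given by group. Exon structures and sequences came from GENCODE M21, and the reference coding transcript of a gene is the complete coding model ranked first by the release's APPRIS tag, then a CCDS tag, then coding length. The share step was tested on simulated data, as was the coverage of the counting interval on unscaled counts. The scaled ratio itself was not tested that way. Tools were Python 3.11.15, numpy 2.4.6, pandas 2.3.3, scipy 1.17.1, matplotlib 3.10.9, R 4.3.3, edgeR 4.0.16 (TMM only) and DESeq2 1.42.0 (size factors only). The grouping by number of noncoding models, the make-up of models and the comparison of single transcripts between tables were chosen after seeing the data. Alternatives were the other transcript table, shares of counts, another denominator, thresholds, minimums, pseudocounts, scalings and each library alone.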

Additional observations from a re-analysis of the deposited data

How the results depend on the processing

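The 29 genes with a summed share of at least 25% became 32 in the alignment-based table (29 of them shared, with Hnrnpm, Son and Srsf4 added), 27 by estimated counts (25 shared) and 31 with coding, retained intron and decay models as the only denominator. Each library alone gave 30 to 31. At a threshold of 50% the count was 15 and the background 14.4%. By estimated counts Hnrnpl, Srrm1, Srrm2 and Srsf1 fell below 25%, Celf2 and Srsf5 rose above it, and the background fell from 43.1% to 29.2%. The median retained intron share of 31.9% moved to 34.1% in the alignment-based table and 23.3% by counts. The median decay share of 7.8% moved to 5.9%, 6.3% and, with the restricted denominator, 8.8%. The median summed share of 42.9% moved to 44.1%, 33.5% and 43.6%. With each library alone these medians ranged from 30.5% to 33.3%, from 8.0% to 8.6% and from 41.9% to 42.8%. By counts, 0 genes differed by 10 points between the libraries in either class; Tra2a, at 65.1% and 75.1% retained intron, lay just under the limit. The median level of 115 TPM was 132 TPM in the isoform table, 62 TPM for coding models alone and 109 to 120 TPM by library. The percent of all genes past 1.5-fold, 7.02%, was 35.6% with no minimum on counts and 4.28% on TPM with a pseudocount of 1. It was 2.26% at 2-fold. The count of ratios above 1, 25 of 47, was 28 with TMM scaling and 27 by isoform-table counts. It stayed at 25 with DESeq2 size factors and on TPM. Single transcripts were less stable: of 231 transcripts of these genes with at least 10 TPM, 138 (59.7%) lay within 1.5-fold in the other table and 11 were listed at 0 there. No paired analysis was possible because there is only 1 group. Depth limits the rare models most, such as the coding Clk1 model with 92 and 152 estimated reads.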
